A study of Mus musculus with 9 samples.

Results

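The 9 genes that encode the enzymes and adaptors next to the T cell receptor (TCR) were examined in tumor-infiltrating CD8+ T cells. They were the kinases Lck, Fyn and Zap70, the adaptors Lat and Lcp2, the phospholipase Plcg1, the exchange factor Vav1 and the phosphatases Ptpn22 and Ptpn6. They were taken as a list of names and found by matching the Ensembl identifiers of the count tables to mouse gene symbols, and they make up 9 of the 32976 genes listed. The cells came from CT26 tumors, a colorectal carcinoma line grown under the skin of wildtype BALB/c mice. All mice of the 3 groups had received the PD-1 antibody RMP1-14 on days 3, 6 and 9 after implantation, so untreated cells are not part of any comparison. Cells were sorted with tetramers of GSW11, a tumor peptide presented by H2-Dd, and the brightness of the tetramer defined the avidity. TetHighProg held high avidity cells of progressing tumors, TetLowReg low avidity cells of regressing tumors and TetLowProg low avidity cells of progressing tumors, with 3 libraries each. The libraries keep the submitters' numbers, so that TetHighProg has replicates 1, 2 and 5, TetLowReg has 6, 7 and 8, and TetLowProg has 9, 10 and 12. The cells came from 3 regressing and 3 progressing tumors, so TetHighProg and TetLowProg were sorted from the same progressing tumors, and the labels do not say which libraries share one. The tests treat the 9 libraries as separate samples, and a p-value here measures only the spread between them, which may be technical.

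When a TCR binds its peptide, Lck, a kinase of the Src family that is held at the CD8 coreceptor, phosphorylates the CD3 and zeta chains. Zap70 docks on these chains, is itself activated by Lck, and phosphorylates the adaptors Lat and SLP-76, the product of Lcp2. The 2 adaptors then gather phospholipase C gamma 1 (Plcg1), which opens the calcium and protein kinase C branches, and Vav1, which drives the actin cytoskeleton through Rac. Fyn is the other Src family kinase of T cells, and the phosphatases PTPN22 and SHP-1 (Ptpn6) work against this cascade, PTPN22 by removing activating phosphates from Lck and Zap70. Activity in this cascade is set by phosphorylation, which RNA does not measure.

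The libraries differed widely in how many genes they held. Gene counts summed to between 16405306 and 36429515 in a library, and levels are given as counts per 1000000 of these (CPM). A count of 0 allows a level of 0.0824 to 0.183 CPM, taking 3 counts as the limit. A gene is called found here at 10 counts or more, and the number of genes found ran from 599 to 8071. The sparse libraries, with 1298 genes or fewer, were TetHighProg replicates 1 and 2 and, in the low avidity groups, TetLowReg replicate 6 and TetLowProg replicate 10. Mitochondrially encoded genes took 44.5% of the counts in TetLowReg replicate 7 and 14.2% in replicate 8, against at most 6.07% in the other 7 libraries. Of 10 genes that every cell uses, TetHighProg replicates 1, 2 and 5 had 6, 7 and 8, TetLowReg replicate 6 had 3, TetLowProg replicate 10 had 5, and the other 4 libraries had 9 or 10. Pgk1, a glycolytic enzyme, had no count in any TetHighProg library, TetLowReg replicate 6 or TetLowProg replicate 10, and 2 counts in TetLowReg replicate 7. The label CD8 T cell was borne out by its markers in part. Of 14 CD8 T cell markers, 12 to 14 were found in the 5 richer libraries and 3 to 8 in the sparse ones, where the 2 chains of the CD8 coreceptor went separate ways. Cd8a was at 0 in 3 of the 4 sparse libraries, which had 79539, 78155 and 75010 counts of Cd8b1, while TetLowReg replicate 6 had 47022 counts of Cd8a and 8 of Cd8b1. Because cDNA was amplified by PCR without molecular identifiers, all counting intervals and limits cover counting error only. In bulk RNA, fewer cells with a transcript and less transcript per cell cannot be told apart.

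In every group the sparse libraries held fewer members than the richer ones. TetHighProg replicates 1, 2 and 5 held 1, 2 and 5 of the 9 members. TetLowReg replicates 6, 7 and 8 held 1, 9 and 8, and TetLowProg replicates 9, 10 and 12 held 9, 2 and 9. At this minimum of 10 counts all 4 sparse libraries thus had 1 or 2 members (at 1 count or more, TetLowProg replicate 10 had 6), TetHighProg replicate 5 with its 3181 genes had 5, and the 4 libraries with 6443 to 8071 genes had 8 or 9.

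**Figure D1:**
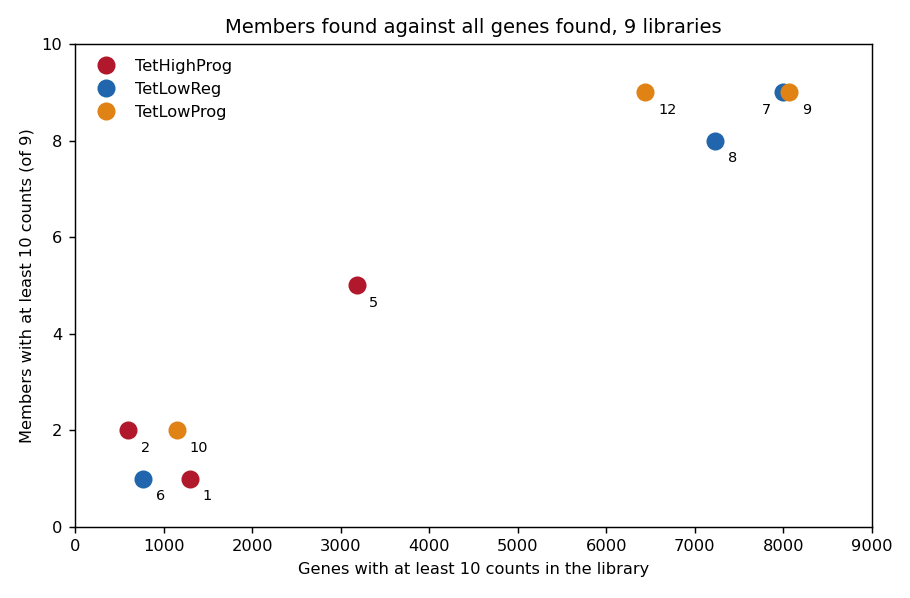
Number of the 9 members with at least 10 counts (vertical axis) against the number of all genes with at least 10 counts (horizontal axis), 1 point per library, colored by group and labelled by replicate number. The 4 sparse libraries sit at the lower left with 1 or 2 members, whichever group they belong to, and the 4 richest libraries sit at the upper right with 8 or 9.

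Members were mostly either well counted or absent. Of the 81 values (9 genes in 9 libraries), 28 were 0, 7 were 1 or 2 counts, none lay between 3 and 9, and 35 reached 1000 counts or more. Lat and Ptpn22 were found in 7 libraries, Lck in 6, Fyn and Lcp2 in 5, and Zap70, Plcg1, Vav1 and Ptpn6 in 4. Among the 13373 genes found in at least 1 library the median was 2 libraries, and only 5.30% were found in 7 or more. Together the members took between 0.0409% of the gene counts (95% Clopper-Pearson interval 0.0400 to 0.0417) in TetLowReg replicate 6 and 0.549% (0.546 to 0.551) in TetLowProg replicate 9. The TetLowReg libraries had 0.0409%, 0.124% and 0.109%, the TetHighProg libraries 0.0854%, 0.432% and 0.336%, and the TetLowProg libraries 0.549%, 0.246% and 0.263%. Each TetLowProg library lay above each TetLowReg library in this share, while TetHighProg overlapped both. With mitochondrially encoded genes left out of the totals, the highest TetLowReg share was 0.224% (replicate 7) and the lowest TetLowProg share 0.250% (replicate 10), so the order held by a narrower gap.

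**Figure D2:**
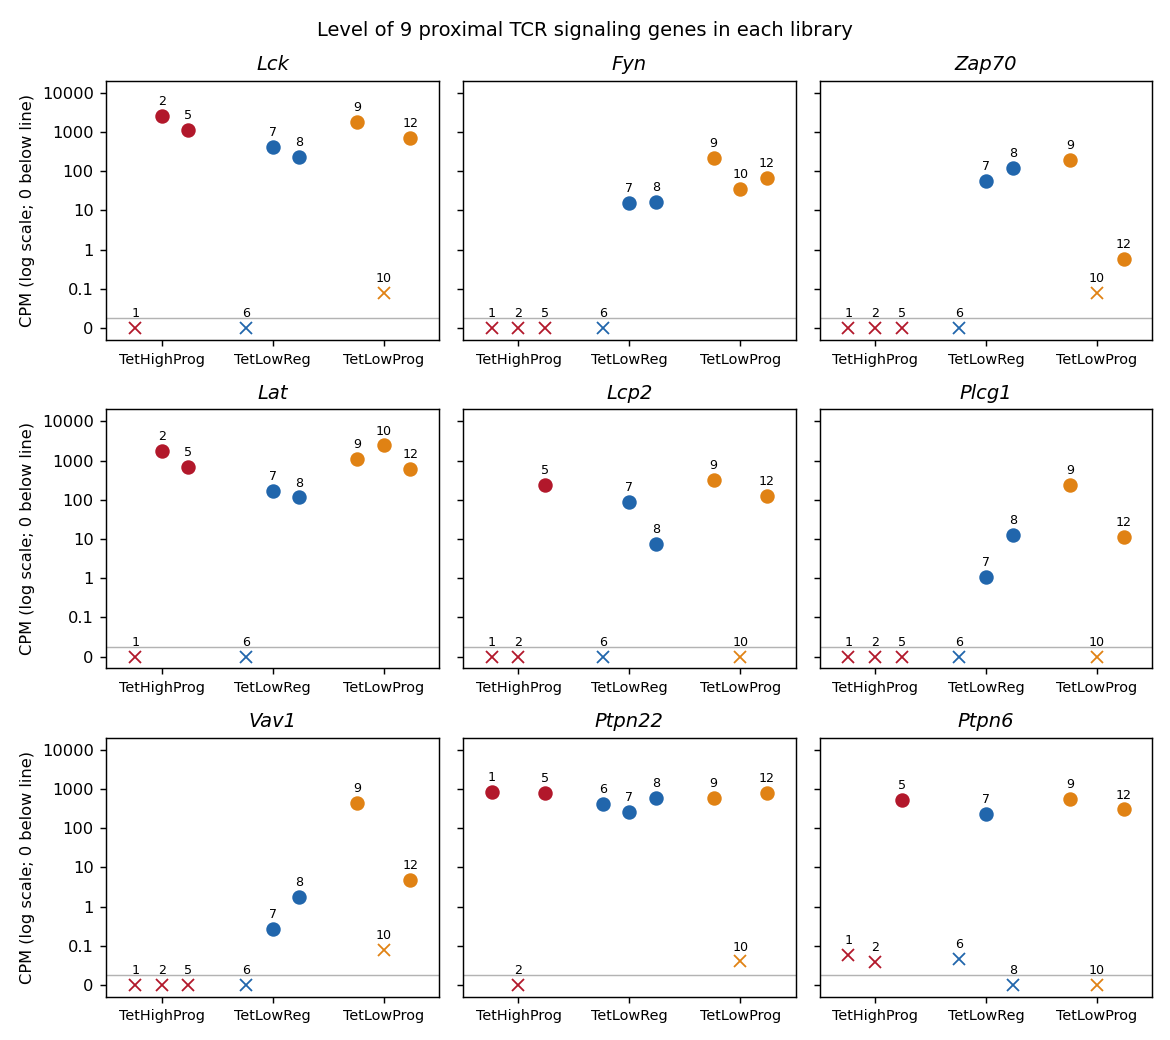
Level of each member in CPM (vertical axis, log scale, with 0 drawn below the grey line) in the 3 libraries of each group, labelled by replicate number. Circles mark at least 10 counts and crosses fewer. Fyn, Zap70, Plcg1 and Vav1 have no count in any TetHighProg library, whereas Lck and Lat reach 2555 and 1764 CPM in TetHighProg replicate 2.

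Lck (ENSMUSG00000000409, chr4:129442137-129467434 on GRCm39, minus strand), the kinase that starts the cascade, was the most abundant member per kilobase of exon in 5 of the 6 libraries that held it, the exception being TetLowReg replicate 8. It had 0, 64706 and 25167 counts in TetHighProg replicates 1, 2 and 5, and 0, 15469 and 3782 in TetLowReg replicates 6, 7 and 8. TetLowProg replicates 9, 10 and 12 had 66200, 2 and 22199. Each group therefore had 2 libraries with 3782 counts or more and 1 sparse library with 2 counts or fewer, and the groups overlapped. Mean levels were 1221 ± 1281 CPM (SD, n = 3) in TetHighProg, 842 ± 919 in TetLowProg and 218 ± 213 in TetLowReg, and neighbours in this order differed by less than their spread. Where it was found, Lck stood per kilobase of exon above 88.8% to 99.6% of the genes found in the same library. Among the libraries that held it, the TetLowReg values were 425 and 231 CPM, and the 4 others ran from 705 to 2555 CPM. With mitochondrially encoded genes left out of the totals, TetLowReg replicate 7 stood at 765 CPM, above the 750.2 CPM of TetLowProg replicate 12.

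Fyn (ENSMUSG00000019843, chr10:39244851-39442227, plus strand), the second Src family kinase of T cells, had no count in any TetHighProg library. It had 0, 554 and 270 counts in TetLowReg and 7885, 905 and 2133 in TetLowProg, and was the only member besides Lat found in all 3 TetLowProg libraries. Every TetLowProg library lay above every library of the other 2 groups. Mean levels were 107 ± 96.6 CPM (SD, n = 3) in TetLowProg and 10.6 ± 9.16 in TetLowReg, which differ by about the spread of the higher group. Per kilobase, Fyn stood above 24.8% to 73.8% of the genes found in a library. In the 4 libraries with both Src family kinases, Lck exceeded Fyn per kilobase by 30.8 to 102 times.

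Zap70 (ENSMUSG00000026117, chr1:36800837-36821905, plus strand), which couples the phosphorylated receptor chains to the adaptors, also had no count in TetHighProg. TetLowReg replicates 6, 7 and 8 had 0, 2027 and 1973 counts, and TetLowProg replicates 9, 10 and 12 had 6991, 2 and 18. The low avidity groups thus overlapped, with 0.08 to 192 CPM against 0 to 120 CPM, and their means of 64.3 ± 111 CPM (SD, n = 3) in TetLowProg and 58.6 ± 60.2 in TetLowReg differed by less than the spread. Lck and Zap70 did not keep a fixed ratio, since Lck exceeded Zap70 per kilobase by 2.17 times in TetLowReg replicate 8, 8.64 in replicate 7, 10.7 in TetLowProg replicate 9 and 1395 in TetLowProg replicate 12. No library of the TetHighProg group had Zap70 even where Lck had 64706 or 25167 counts.

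Lat (ENSMUSG00000030742, chr7:125962996-125968810, minus strand), the membrane adaptor that Zap70 phosphorylates, had 0, 44665 and 15765 counts in TetHighProg, 0, 6118 and 1881 in TetLowReg and 40039, 61000 and 19343 in TetLowProg. The lowest TetLowProg library (614 CPM) lay above the highest TetLowReg library (168 CPM), while TetHighProg, from 0 to 1764 CPM, overlapped both. In the sparse TetLowProg replicate 10, where Fyn was the other member found, Lat stood at 2426 CPM and above 95.7% of the genes found. Mean levels were 1381 ± 938 CPM (SD, n = 3) in TetLowProg, 820 ± 888 in TetHighProg and 94.2 ± 85.8 in TetLowReg, and neither TetLowProg and TetHighProg nor TetHighProg and TetLowReg differed beyond their spread.

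Lcp2 (ENSMUSG00000002699, chr11:33996920-34042426, plus strand), which encodes the scaffold SLP-76, was found in a single TetHighProg library. It had 0, 0 and 5349 counts in TetHighProg, 0, 3264 and 125 in TetLowReg and 11751, 0 and 3992 in TetLowProg, so all 4 sparse libraries were at 0 and the groups overlapped. Mean levels were 150.0 ± 163 CPM (SD, n = 3) in TetLowProg, 78.6 ± 136 in TetHighProg and 32.4 ± 49.7 in TetLowReg, with neighbours closer than their spread. In the 5 libraries with both adaptors Lat exceeded Lcp2 per kilobase by 3.04 to 24.4 times, with TetLowReg replicate 8 at the top and the other 4 at no more than 7.86.

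Plcg1 (ENSMUSG00000016933, chr2:160573176-160647426, plus strand), which splits phosphatidylinositol bisphosphate into the second messengers for calcium and protein kinase C, had no count in TetHighProg. It had 0, 39 and 212 counts in TetLowReg and 8784, 0 and 361 in TetLowProg. Most of its RNA thus lay in TetLowProg replicate 9, at 242 CPM, while the other 3 libraries that held it had 1.07 to 12.9 CPM. The low avidity groups overlapped, and their means of 84.4 ± 136 CPM (SD, n = 3) in TetLowProg and 4.66 ± 7.17 in TetLowReg differed by less than the spread of the former. Exons of Plcg1 overlap genes on the opposite strand, and the counts did not use strand. Counted by strand, Plcg1 had 11838 reads over the 9 libraries against 9396 without strand, the difference being reads set aside as shared.

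Vav1 (ENSMUSG00000034116, chr17:57586095-57636235, plus strand), the exchange factor that activates Rac, had nearly all of its counts in 1 library. It had no count in TetHighProg, 0, 10 and 29 counts in TetLowReg, and 16183, 2 and 148 in TetLowProg. The 445 CPM of TetLowProg replicate 9 compare with at most 4.70 CPM in each of the other 8 libraries. The mean was therefore 150.0 ± 256 CPM (SD, n = 3) in TetLowProg, and 0.68 ± 0.95 in TetLowReg. Per kilobase it stood above 95.2% of the genes found in TetLowProg replicate 9 and above 5.05% to 25.3% in the other 3 libraries that held it.

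Ptpn22 (ENSMUSG00000027843, chr3:103767062-103819565, plus strand), the phosphatase that acts on Lck and Zap70, was, with Lat, the member found most often. It had 28533, 0 and 18056 counts in TetHighProg, 9010, 9362 and 9650 in TetLowReg, and 21220, 1 and 25165 in TetLowProg. It was found in all 3 TetLowReg libraries and was the only member found in TetHighProg replicate 1 and in TetLowReg replicate 6. Mean levels of 550 ± 477 CPM (SD, n = 3) in TetHighProg, 461 ± 413 in TetLowProg and 418 ± 166 in TetLowReg differed by less than their spread. Over the 7 libraries that held it the level ran from 257 to 854 CPM.

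Ptpn6 (ENSMUSG00000004266, chr6:124697670-124715840, minus strand), which encodes SHP-1, was found in TetHighProg replicate 5 (11866 counts), TetLowReg replicate 7 (8399) and TetLowProg replicates 9 (20373) and 12 (9499). The other 5 libraries had 2 counts or fewer, among them TetLowReg replicate 8, which held the 8 other members. Mean levels were 287 ± 281 CPM (SD, n = 3) in TetLowProg, 174 ± 302 in TetHighProg and 76.9 ± 133 in TetLowReg, and the groups overlapped. Where found it lay at 231 to 561 CPM, and per kilobase it exceeded Ptpn22 in 3 of the 4 libraries that held both, with Ptpn22 at 0.45 to 0.65 times Ptpn6 there and at 1.13 times in TetLowProg replicate 12. An antisense gene overlaps its exons, and counting by strand gave 57560 reads over the 9 libraries against 50141 without strand.

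The 4 members without a count in TetHighProg thus comprised 2 of the 3 kinases and both enzymes below the adaptors. Of all 5813 genes that passed the filter on low counts, 34.3% had no count in TetHighProg, and 13.8% had none there and were found in at least 2 libraries of each low avidity group, as Fyn, Zap70, Plcg1 and Vav1 were. Lck, Lat and Ptpn22 were found in 2 TetHighProg libraries each, against 17.9% of all genes found in 2 or more. Without TetHighProg replicate 5, Lcp2 would also be at 0 in the group, which makes 5 members.

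For the promoters of Lck and Lat, which had 15765 to 64706 counts in TetHighProg replicates 2 and 5, and of Fyn, Zap70 and Vav1, which had no count there, the sequence around the first listed start is shown. The windows run from 250 bases before to 50 after the start and come from RefSeq on build GRCm38.p6, which is older than the build of the counts. All 9 members had a window, 13 windows in all, because Zap70, Lck and Ptpn22 have more than 1 listed start, and the counts per gene do not tell which start was used. Capitals mark matches on either strand to 5 short motifs, those of ETS and RUNX factors, the GC box, the core of the cyclic AMP response element (CRE) and the TATA box.
Lck (chr4:129573592-129573891, minus strand): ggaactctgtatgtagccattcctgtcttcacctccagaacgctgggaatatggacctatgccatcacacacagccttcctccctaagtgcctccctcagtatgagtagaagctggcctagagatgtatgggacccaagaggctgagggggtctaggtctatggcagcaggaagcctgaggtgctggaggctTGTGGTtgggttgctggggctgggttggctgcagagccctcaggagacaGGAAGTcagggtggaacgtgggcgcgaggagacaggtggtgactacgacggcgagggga
Lat (chr7:126369519-126369818, minus strand): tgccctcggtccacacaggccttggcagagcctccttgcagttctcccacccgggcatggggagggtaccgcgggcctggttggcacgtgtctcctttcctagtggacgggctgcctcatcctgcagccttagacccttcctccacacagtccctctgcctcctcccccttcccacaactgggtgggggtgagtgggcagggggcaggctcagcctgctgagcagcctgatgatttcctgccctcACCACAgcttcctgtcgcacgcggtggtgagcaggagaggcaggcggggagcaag
Fyn (chr10:39369549-39369848, plus strand): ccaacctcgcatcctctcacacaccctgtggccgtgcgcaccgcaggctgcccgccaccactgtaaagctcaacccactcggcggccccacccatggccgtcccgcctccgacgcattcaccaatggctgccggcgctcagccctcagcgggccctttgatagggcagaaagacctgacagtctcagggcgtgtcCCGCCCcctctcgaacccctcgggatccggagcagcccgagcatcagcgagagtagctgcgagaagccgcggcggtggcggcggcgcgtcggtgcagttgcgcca
Zap70 (chr1:36761548-36761847, plus strand): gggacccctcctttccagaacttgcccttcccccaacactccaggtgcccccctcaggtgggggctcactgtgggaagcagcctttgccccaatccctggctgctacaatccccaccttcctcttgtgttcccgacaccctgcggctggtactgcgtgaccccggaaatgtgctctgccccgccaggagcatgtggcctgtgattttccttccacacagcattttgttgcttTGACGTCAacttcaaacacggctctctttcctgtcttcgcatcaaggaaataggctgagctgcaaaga
Vav1 (chr17:57278850-57279149, plus strand): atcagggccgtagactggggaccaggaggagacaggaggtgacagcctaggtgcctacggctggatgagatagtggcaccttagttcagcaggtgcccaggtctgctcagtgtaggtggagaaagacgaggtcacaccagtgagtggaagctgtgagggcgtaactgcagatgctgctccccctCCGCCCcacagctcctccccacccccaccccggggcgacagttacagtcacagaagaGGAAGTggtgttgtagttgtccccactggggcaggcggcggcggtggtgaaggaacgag

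No motif lay in windows of all the members that were absent from TetHighProg, although the GC box lay in those of Fyn, Plcg1 and Vav1. The ETS motif, searched as GGAAGT, lay in the Lck and Vav1 windows shown, and over all 13 windows in 6, those of Lck (both), Vav1, Ptpn22, Ptpn6 and the second of Zap70, against 23.8% of all 32851 mouse windows. The RUNX motif, searched as TGTGGT, lay in the first window of Lck, in that of Lat, in the second window of Zap70 and in the second of Ptpn22, so in 4 of 13, against 16.8% of all windows. A GC box, searched as GGGCGG, lay in 5 of 13, those of Fyn, Plcg1, Vav1 and Ptpn6 and the second of Lck, against 35.7% of all windows. The CRE core, searched as TGACGT, occurred in 1 of 13, for Zap70, where 2 matches on opposite strands share 4 bases, against 7.51% of all windows. The TATA box, searched as TATAAA, was found in 1 of 13, for Ptpn22, against 13.6%. No window of Lcp2 held any of the 5 motifs, and Plcg1 had the window richest in G and C at 72.0%. A match of 6 letters is a description of the sequence and shows no binding.

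The first comparison, of low avidity cells from regressing tumors with high avidity cells from progressing tumors, was the study's main contrast in RNA, and differs in both avidity and tumor outcome. Fyn, Zap70, Plcg1 and Vav1, without a count in TetHighProg, had 10 to 2027 counts in TetLowReg replicates 7 and 8. Lck and Lat were lower in both of these libraries than in TetHighProg replicates 2 and 5. TetLowReg replicate 6 and TetHighProg replicate 1 had no count for any of these 6 genes, so that they overlapped at 0. In all, 0 of 9 members had libraries that did not overlap between the groups, against 4.8% of all genes that were higher in every TetLowReg library and 0.998% that were lower. Without TetLowReg replicate 6, Fyn, Zap70, Plcg1 and Vav1 were higher in every remaining TetLowReg library, 4 of 9 members against 44.5% of all genes. Without TetHighProg replicate 1, Lck and Lat were lower in every TetLowReg library (2 of 9, against 2.24%), and without TetHighProg replicate 2, Ptpn22 was (1 of 9, against 4.7%). The edgeR quasi-likelihood test, fitted to all 9 libraries, called 0 of 9 members and 0.0% of all 5813 genes, with a call needing a Benjamini-Hochberg adjusted p under 0.05 and a log2 fold change beyond 2 in size. At an unadjusted p under 0.05, 1 of 9 (Zap70) was higher and 0 lower, against 19.0% and 0.516% of all genes. The members' count followed the share of all genes when a library was left out. It was 2 (Zap70 and Fyn, against 28.2% of genes) without TetLowReg replicate 6, 1 without TetLowProg replicate 10 (23.4%) and 0 without any 1 of the other 7 libraries (1.15% to 3.46%).

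Fitted values for genes at 0 in a group depend on the prior count of 2, so the limits from pooled counts are given beside them. The log2 fold change of Zap70 was 10.11 (standard error 4.94, adjusted p = 0.233 by edgeR), and its pooled level in TetLowReg was at least 1450-fold higher with TetHighProg set at 3 counts over the group. Genes that every cell uses were partly missing from TetHighProg and from the other sparse libraries too, as given above for Pgk1, and the part of such losses in these limits was not tested. The Zap70 limit was lowest, 855-fold, without TetHighProg replicate 1, and 941-fold without TetLowReg replicate 8. For Fyn the log2 fold change was 7.74 (standard error 4.14) and the limit at least 299-fold, or 176-fold without TetHighProg replicate 1 and 191-fold without TetLowReg replicate 7. Plcg1 and Vav1 had smaller values, at 6.32 (standard error 3.56) and 3.68 (2.49), with limits of at least 91.0-fold and 14.1-fold that fell to 18.1-fold and 4.64-fold without TetLowReg replicate 8. Without TetHighProg replicate 1 they were 53.6-fold and 8.34-fold, and without TetLowReg replicate 7 the Plcg1 limit was 150-fold.

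Lck and Lat were lower in TetLowReg by pooled counts. Lck was 4.29-fold lower and Lat 6.95-fold lower. The fitted log2 fold changes were -2.39 (standard error 2.79) and -3.08 (2.91), with adjusted p-values of 0.649 and 0.531 by edgeR, and both were positive in limma-voom with sample quality weights. The pooled Lck ratio was 1.74-fold lower without TetHighProg replicate 2, 7.28-fold without TetHighProg replicate 1 and 11.2-fold without TetLowReg replicate 7. For Lat these were 2.63-fold, 11.8-fold and 15.2-fold lower. The 2 TetLowReg libraries that held both genes are those with 44.5% and 14.2% mitochondrial counts. With those counts left out of the totals, an alternative chosen after seeing the data, Lck was 3.33-fold and Lat 5.40-fold lower. For Lck, Lcp2, Ptpn22 and Ptpn6 the fitted difference was smaller than its standard error.

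Over the 9 members 4 fold changes were positive and 5 negative, with a median of -0.06, while over all genes tested 72.7% were positive and the median was 3.52. With genes at 0 in 1 group set at their limit these medians were -0.06 and 3.62. The median over all genes depended on the setting, at 1.52 without TetLowReg replicate 7 and 5.80 without TetHighProg replicate 5. It was 0.35 with edgeR on the 2 groups alone, which tested fewer genes. Other tools called some members, all higher in TetLowReg. DESeq2 with default size factors called 3 (Fyn, Zap70 and Plcg1) and 32.1% of all genes as higher. With poscounts size factors it called 2 (Fyn and Zap70) against 22.8%, and on the 2 groups alone the same 2 against 28.0%. Limma-voom called 4 (Fyn, Zap70, Plcg1 and Lcp2) against 41.3%. Its call of Lcp2, at a log2 fold change of 8.37, goes against the direction in edgeR (-0.25) and in pooled counts (1.45-fold lower in TetLowReg). The pooled direction itself rests on single libraries. Lcp2 was 20.2-fold lower without TetLowReg replicate 7, and at least 886-fold higher without TetHighProg replicate 5. Fyn and Zap70 also stand on the study's own list of genes higher in TetLowReg, which was drawn from these libraries and is not independent evidence of their direction.

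The second comparison, of low with high avidity cells within progressing tumors, holds the outcome of the tumor fixed. Fyn, Zap70 and Vav1 were higher in every TetLowProg library than in every TetHighProg library, 3 of 9 members against 6.67% of all genes. For Zap70 and Vav1 this rests on 2 counts in TetLowProg replicate 10, below the limit of 3 that a count of 0 allows. Fyn alone had 905 counts or more in all 3. No member was lower in every TetLowProg library (0.499% of genes). Plcg1 had no count in TetLowProg replicate 10 and so overlapped at 0, and without that library 4 members did not overlap, against 48.6% of all genes. EdgeR called 0 of 9 members and 0.0% of genes, and 4 of 9 (Fyn, Zap70, Plcg1 and Vav1) had an unadjusted p under 0.05, all higher, against 24.8% of all genes higher and 0.55% lower at that p. That count stayed at 4 without TetLowReg replicate 6 or TetLowProg replicate 10, where 29.7% and 31.3% of all genes were higher at that p. It was 0 without any 1 of the other 7 libraries, where that share was 1.26% to 3.42%, so the members' count moved with that of all genes.

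Vav1 had the largest fitted difference, a log2 fold change of 10.38 (standard error 5.0, adjusted p = 0.193 by edgeR). Its pooled limit of at least 4767-fold fell to 71.9-fold without TetLowProg replicate 9, the library with 16183 of its counts, and to 2811-fold without TetHighProg replicate 1. Fyn had 10.11 (standard error 4.91) with a limit of at least 3188-fold, which was 1456-fold without TetLowProg replicate 9 and 1880-fold without TetHighProg replicate 1. For Plcg1 the values were 9.57 (4.67) and at least 2669-fold, or 173-fold without TetLowProg replicate 9 and 1574-fold without TetHighProg replicate 1. Zap70 had 9.15 (4.64) and a limit of at least 2046-fold, which was 9.58-fold without TetLowProg replicate 9, 1207-fold without TetHighProg replicate 1 and 3087-fold without TetLowProg replicate 12. Fyn therefore had the limit that moved least when a library was left out.

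The members present in TetHighProg differed less. Lck had a log2 fold change of -1.53 (standard error 2.72), which was 0.30 without TetHighProg replicate 2 and positive in limma-voom. As for Lck, the fitted differences of Lat, Lcp2, Ptpn22 and Ptpn6 were below their standard errors. The members' median was 0.73, against 4.27 over all genes tested (4.56 with genes at 0 set at their limit). The median over all genes was 1.73 without TetLowProg replicate 9 and 6.85 without TetHighProg replicate 5. With edgeR on the 2 groups alone, which tested fewer genes, it was 0.76. DESeq2 called 3 members with default size factors (Fyn, Zap70 and Plcg1, against 40.5% of genes higher) and 2 with poscounts factors (Fyn and Vav1, against 18.7%). On the 2 groups alone it called 2 (Fyn and Plcg1, against 40.5%), and limma-voom called 5 (Fyn, Lcp2, Plcg1, Vav1 and Ptpn6, against 49.6%).

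The third comparison, of low avidity cells between progressing and regressing tumors, holds avidity fixed. Fyn and Lat were higher in every TetLowProg library than in every TetLowReg library, 2 of 9 members against 2.77% of all genes. No member was lower in every TetLowProg library (0.654% of genes). Pooled, Lat was 12.1-fold higher in TetLowProg, or 26.5-fold without TetLowReg replicate 7, and Fyn was 10.7-fold higher, or 4.87-fold without TetLowProg replicate 9 and 16.7-fold without TetLowReg replicate 7. Without TetLowProg replicate 10, Lck, Lcp2, Vav1 and Ptpn6 separated as well, in the same direction, which made 6 of 9 members against 26.9% of all genes. With mitochondrially encoded genes also left out of the totals it was 3 of 9 (Fyn, Lat and Vav1) against 21.0%, because Lck, Lcp2 and Ptpn6 then stood higher in TetLowReg replicate 7 (765, 161 and 415 CPM) than in TetLowProg replicate 12 (750.2, 135 and 321 CPM).

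By edgeR 0 of 9 members were called (0.0% of genes), 0 had an unadjusted p under 0.05 (0.43% of genes higher, 0.499% lower), and all 9 adjusted p-values were 0.99997. DESeq2 also called 0 members with default size factors (0.943% of genes higher), with poscounts factors (0.205%) and on the 2 groups alone (0.126%), as did limma-voom (0.0%). The fitted log2 fold change was 3.10 (standard error 2.91) for Lat and 6.69 (5.46) for Vav1, and for the 7 other members it was smaller than its standard error. The pooled ratio of Vav1, 337-fold higher in TetLowProg, was 5.08-fold without TetLowProg replicate 9 and 1027-fold without TetLowReg replicate 8. The members' median was 0.99 against 0.35 over all genes. Without 1 library the median over all genes ran from -0.63 (TetLowProg replicate 9) to 1.75 (TetLowReg replicate 7).

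Both low avidity groups together were also set against TetHighProg, whose libraries all these comparisons with high avidity cells share. EdgeR called 0 of 9 members and 0.0172% of genes, and 2 of 9 (Zap70 at 9.63, standard error 4.75, and Fyn at 8.93, 4.50) had an unadjusted p under 0.05, against 24.4% of genes higher and 1.19% lower. With Plcg1 the count was 3 without TetLowReg replicate 6 (23.6% of genes higher at that p) or TetLowProg replicate 10 (24.4%), and it was 0 without any 1 of the other 7 libraries (1.22% to 3.51%). Plcg1 and Vav1 had 7.95 (4.10) and 7.03 (3.85). The members' median was 0.24, against 4.29 over all genes, which was 3.08 without TetLowProg replicate 9 and 5.91 without TetHighProg replicate 5. The strict filter gave 0.79 over the fewer genes it tested. The 6 low avidity libraries overlapped TetHighProg for all 9 members, against 0.946% of genes that were higher and 0.189% that were lower in every one. Without TetLowReg replicate 6, Fyn, Zap70 and Vav1 were higher in every low avidity library, 3 of 9 members against 5.16% of genes, which for Zap70 and Vav1 rests on the 2 counts in TetLowProg replicate 10. DESeq2 called 3 members, Fyn, Zap70 and Plcg1, with default size factors (40.3% of genes higher) and the same 3 with poscounts factors (26.6%), and limma-voom called 6 (67.6%).

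**Figure D3:**
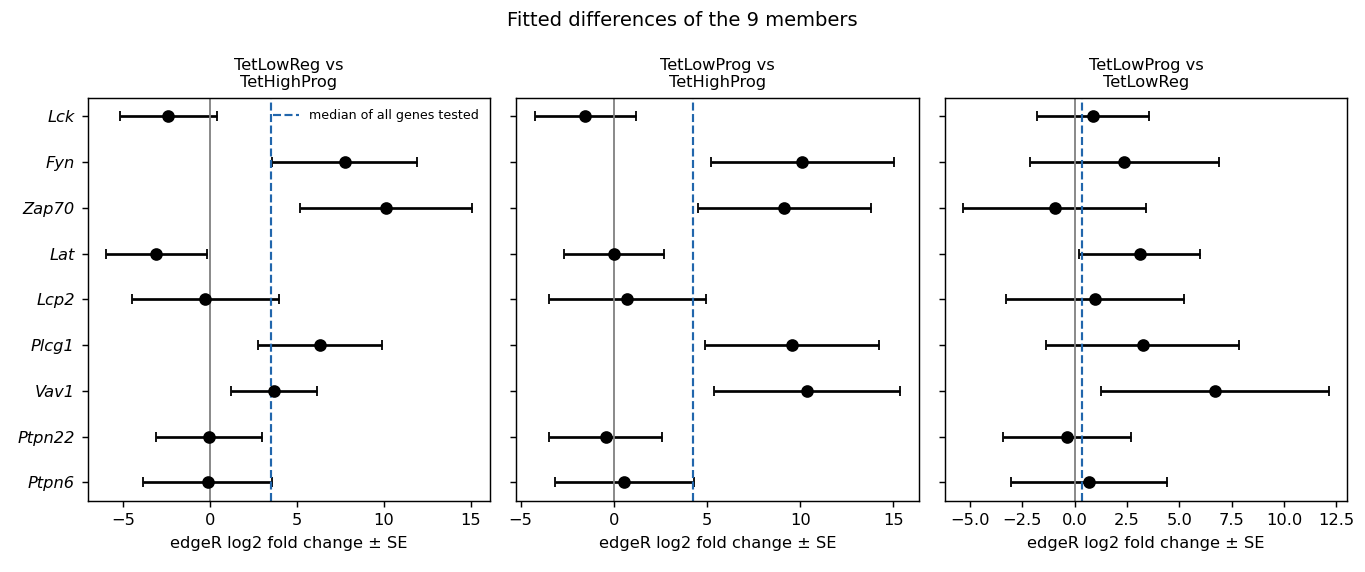
EdgeR log2 fold change of each member (horizontal axis) with its standard error as a bar, in 3 comparisons, with the median over all genes tested as a dashed line. In both comparisons with TetHighProg, Fyn, Zap70, Plcg1 and Vav1 lie right of the others, and for these 4 genes, at 0 in TetHighProg, the fitted size depends on the prior count. In the comparison of the low avidity groups only Lat and Vav1 exceed their standard errors.

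The wider set of genes that act beside the members was described with a list of 64, of which 54 were tested. EdgeR called 0 of them in each of the 3 comparisons of groups. In TetLowReg against TetHighProg their median log2 fold change was 1.96, with 34 positive and 5 at an unadjusted p under 0.05, all higher, against 72.7% and 19.0% of all genes. In TetLowProg against TetHighProg the median was 3.47, with 38 positive and 9 at that p, against 73.5% and 24.8% of all genes. Between the low avidity groups it was 1.06, with 35 positive and none at that p. Of all genes 55.5% were positive there, and 0.43% were higher and 0.499% lower at that p. The list thus lay above the members' median in all 3 and below the median of all genes in the first 2. Of the 64 genes, 36 were found in at least 1 TetHighProg library, and of the 54 tested 35 were (64.8%), against 53.4% of all genes tested. All 6 receptor and coreceptor genes were among them, as were 4 of 7 other kinases, 14 of 28 adaptors, 8 of 12 phosphatases, 2 of 5 exchange factors and phospholipases and 2 of 6 ubiquitin ligases and diacylglycerol kinases.

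Of the 54 genes, 3 were higher and 3 lower in every TetLowReg library than in every TetHighProg library, against 4.8% and 0.998% of all genes. In TetLowProg 4 were higher than in TetHighProg (6.67% of all genes) and 5 higher than in TetLowReg (2.77%). TetLowReg lay wholly above TetHighProg for, among others, Cd8a (0, 0 and 123 counts against 47022, 2419 and 3680) and for the adaptor Fyb1. It lay wholly below for the coreceptor chain Cd8b1 (79539, 78155 and 45442 counts against 8, 1250 and 4006), for Ptprc, which encodes the phosphatase CD45 that primes Lck, and for Ubash3b, which encodes a phosphatase that restrains Zap70. The 2 chains of the CD8 coreceptor, which holds Lck, therefore lay in opposite order. TetLowProg lay wholly above TetHighProg for the kinases Prkcq and Pdpk1, the exchange factor Sos1 and the diacylglycerol kinase Dgka. It lay wholly above TetLowReg for Cd3e, Cd8b1, Prkcq and Dgka, among others. None of these passed the edgeR test after adjustment, with the lowest adjusted p among the genes named here being 0.193 for Sos1 in TetLowProg against TetHighProg.

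The genes with the most similar profile to each member were taken by the Pearson correlation of log2(CPM + 1) over the 9 libraries. They were Psmb8 for Lck (r = 0.988), Coro1a and Jpt1 for Fyn (0.985 and 0.979), Mrps9 and Tuba1a for Zap70 (0.999 and 0.998), Nfkbia and Ddx5 for Lat (0.990 and 0.984), and Smc1a and Cyb5a for Lcp2 (0.996 for both). For Plcg1 they were Fbxl17 and Gfm1 and for Vav1 Idh3b and Smarcal1 (0.999 for all 4), for Ptpn6 Arhgef6 and Psmb10 (0.998 for both), and for Ptpn22 H2aj and Chd2 (0.991 and 0.986). The points share depth and richness of the library, and a profile with 0 in the same libraries gives a high value by itself. Zap70 and Mrps9, for example, were both at 0 in all TetHighProg libraries and in TetLowReg replicate 6, and both had at most 18 counts in TetLowProg replicates 10 and 12. Among the members the highest values were 0.96 for Lcp2 and Ptpn6 and 0.95 for Plcg1 and Vav1, and the lowest was -0.48 for Lat and Ptpn22.

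Other immune cells use relatives of the members, such as Lyn for Lck, Syk for Zap70, Lat2 for Lat and Plcg2 for Plcg1. Of 16 such genes 15 were found in at least 1 library, and 8 passed the filter on low counts. Lyn was confined to TetLowReg replicate 7 (3626 counts), TetLowReg replicate 8 (8031) and TetLowProg replicate 12 (5544). Lat2 had 11991 and 11294 counts in TetLowReg replicate 7 and TetLowProg replicate 12 and none elsewhere. Plcg2 exceeded Plcg1 per kilobase in these 3 libraries, where it had 1324, 562 and 330 counts and Plcg1 stood at 0.01, 0.18 and 0.53 times its level. Lyn exceeded Lck per kilobase in TetLowReg replicate 8, with Lck at 0.71 times Lyn. The kinase Syk was found only in TetLowReg replicate 8 (292 counts). Other relatives were found outside these 3 libraries, among them Blnk, Fgr, Vav3, Ptpn12 and Ptpn18 in TetLowProg replicate 9 with 834 to 6460 counts. Ptpn18 had 4934 counts in TetHighProg replicate 1, Ptpn12 had 693 in TetHighProg replicate 5 and Vav3 had 1181 in TetLowReg replicate 6.

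**Figure D4:**
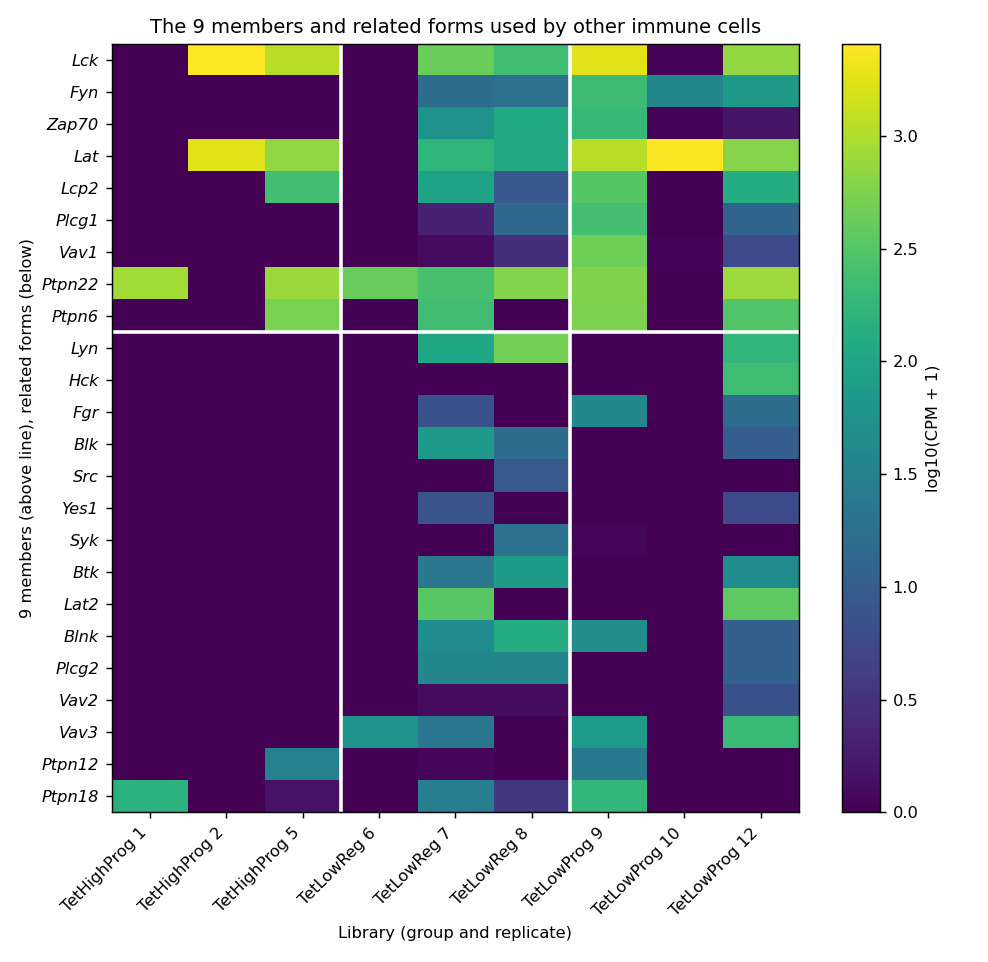
Level of the 9 members (above the line) and of 15 related genes used by other immune cells (below the line) in each library, as log10(CPM + 1) by color, with the groups divided by vertical lines. Lyn and Btk are present in TetLowReg replicates 7 and 8 and TetLowProg replicate 12, while TetLowProg replicate 9, with the highest Fyn, Zap70, Plcg1 and Vav1, has neither.

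The 3 libraries with Lyn also held markers of other cells. Of 8 B cell markers, 7, 8 and 8 were found in TetLowReg replicates 7 and 8 and TetLowProg replicate 12, with summed levels of 2770, 2306 and 2780 CPM. The other 6 libraries had at most 1 of the 8, at 0.04 to 242 CPM. Of 18 markers of macrophages, monocytes and dendritic cells, which include the class II genes, 9, 8 and 6 were found in the same 3 libraries, at 56053, 40437 and 60960 CPM against at most 1544 CPM in the others. The macrophage genes C1qa, C1qb and C1qc were at 0 in all 3, and Csf1r had 9, 8 and 0 counts. Of 5 CD4 T cell and regulatory T cell markers, 3, 3 and 2 were found in these libraries, at 66.6, 79.9 and 52.8 CPM. Cd4 had 2020, 42 and 2 counts and Foxp3 had 123, 585 and 0, and CD4 T cells use the members themselves. TetLowProg replicate 9 had 1 of the 5, Ctla4, which activated CD8 T cells also express, at 241 CPM. Of 5 erythroid markers, 3 were found in each of the 3 libraries, at 31.2 to 69.6 CPM, and none in the other 6. Of 5 neutrophil markers, 3 were found in TetLowReg replicate 7 (147 CPM, nearly all Cxcr2) and 1 in TetLowReg replicate 8 (0.98 CPM), and of 4 NK cell markers only Klre1 was found, in TetLowReg replicate 8 (30 counts) and TetLowProg replicate 9 (1646). Tumor and stroma markers were highest in TetHighProg replicates 1 and 5, at 372 and 84.0 CPM from Col1a2 alone, against at most 11.6 CPM in the low avidity libraries. The 3 libraries with Lyn are also 3 of the 4 that held Zap70, Plcg1 and Vav1, and include both TetLowReg libraries with Fyn. TetLowProg replicate 9 had the highest counts of all 4 of these genes with 242 CPM of B cell and 102 CPM of macrophage and dendritic cell markers. The part of other cells in the members' values was not tested.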

How the data were processed

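Bulk RNA-seq of sorted T cells covered 9 libraries in 3 groups. The authors made the libraries with Smart-seq2, aligned reads to GRCm39 with STAR 2.7.6a per the submitters' processing notes, and deposited raw counts per gene, 1 table per library. The study's methods name featureCounts, whereas the 4 columns match the output of STAR's own counting. The release of the annotation is not given in the sources used here. The unstranded counts were used, since 50.2% to 50.8% of the reads counted by strand fell on a single strand in every library. Summary lines for reads outside genes were left out.

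Of 32976 identifiers, 28645 matched GENCODE M39, which gave symbols, coordinates and exon lengths. Genes were tested with edgeR 4.0.16 in R 4.3.3 (TMM, default filter on low counts, 3 groups in one model, prior count of 2, two-sided) and called where the adjusted p was under 0.05 and the log2 fold change beyond 2 in size. The standard error is the log2 fold change divided by the square root of its F value. All 9 members passed the filter, which keeps a gene through the group where it is high. CPM are counts scaled to a total of 1000000 gene counts, and levels between genes are CPM per kilobase of exon. Pooled ratios divide summed counts by summed gene counts, with a group at 0 set at 3 counts. Alternatives used DESeq2 1.42.0 and limma 3.58.1, other filters and scalings, and left out libraries. Python 3.11.15, NumPy 2.4.6, pandas 2.3.3, SciPy 1.17.1 and matplotlib 3.10.9 were used for tables and figures.

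The genes named are the 9 members, the genes of the wider list whose libraries do not overlap between groups (at most 6 per comparison), the related genes of other cells, and the 2 most similar genes per member. The members and lists were chosen with earlier results of these data known. Some genes that this rule names are not reported here.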

Additional observations from a re-analysis of the deposited data

How the results depend on the processing

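No member was called by edgeR in any comparison under no filter, the strict filter, library size in place of TMM, the 2 groups alone, mitochondrially encoded genes left out or no threshold on the fold change, nor without any single library. Under these settings edgeR called at most 4 of all genes in a comparison (of 6940, without TetLowProg replicate 9). The members' 0 is thus near the share of all genes. The strict filter tested 3 of the 9 members, and edgeR on the 2 groups alone tested 4, 6 and 9 in the 3 comparisons. Calls came only from other tools. For TetLowReg against TetHighProg, DESeq2 called 3 members with default size factors, 2 with poscounts factors and 2 on the groups compared only, and limma-voom called 4. Of all genes, 32.1%, 22.8%, 28.0% and 41.3% were called higher there. For TetLowProg against TetHighProg these counts were 3, 2, 2 and 5, against 40.5%, 18.7%, 40.5% and 49.6% of genes. For both low avidity groups against TetHighProg DESeq2 called 3 and 3 and limma-voom 6, against 40.3%, 26.6% and 67.6%. Why calls came only from other tools was not tested. In limma-voom the log2 fold change of Lck was 3.40 in TetLowReg and 4.72 in TetLowProg against TetHighProg, and that of Lat was 2.55 in TetLowReg. Without 1 library the TetLowProg value of Lck ran from -2.33 to 0.30, positive only without TetHighProg replicate 2 (0.30). Of 36 member fold changes over the 4 comparisons 20 changed sign under at least 1 alternative, while those of Fyn, Plcg1 and Vav1 changed sign in none and that of Zap70 only between the low avidity groups. With no count in TetHighProg, these 4 genes could hardly turn negative against that group, so their stable sign there is no check. The fold changes given for Lck, Fyn, Zap70, Lat, Plcg1 and Vav1 had 309 alternative values. Of these, 265 kept direction and side of the threshold, 30 became significant and 4 reversed, and 10 kept direction but had no adjusted p in DESeq2. Lcp2, Ptpn22 and Ptpn6 are not among them, and each changed sign under at least 1 alternative in all 4 comparisons. The median over all genes in TetLowReg against TetHighProg was 3.52 with TMM and 3.05 with library size. It was 5.53 and 4.63 in DESeq2, which also changes the genes tested and the estimate of the fold, and 6.34 in limma-voom. With other genes tested, edgeR gave 1.31 with no filter, 0.63 with the strict filter and 0.35 on the 2 groups alone. Without 1 library that median ran from 1.52 (TetLowReg replicate 7) to 5.80 (TetHighProg replicate 5). The mean numbers of members found per library moved by less than their spread at a minimum of 1 or 100 counts or when libraries were thinned to the lowest total, a spread of several members in each group, and single libraries moved more, TetLowProg replicate 10 from 2 members to 6 at 1 count. Without the 4 sparse libraries, an alternative chosen after seeing the data, edgeR also called 0 members, and at most 7 of 12933 genes in a comparison. Leaving out the 3 libraries with class II counts, also chosen after seeing the data, leaves TetLowReg replicate 6 alone in its group and gives no check of the comparisons with TetLowReg. For TetLowProg against TetHighProg it leaves 2 libraries against 3, edgeR called 0 members and 0 of 8828 genes, and the log2 fold changes of Fyn, Zap70, Plcg1 and Vav1 were 10.57, 10.16, 10.49 and 11.37. The median over all genes was 5.25 there. Except for Fyn these values rest on TetLowProg replicate 9, since replicate 10 had at most 2 counts of Zap70, Plcg1 or Vav1. No paired analysis was possible because the labels give the groups no shared replicate numbers and do not say which TetHighProg and TetLowProg libraries share a tumor. Thinned to the lowest total, TetLowReg replicate 7 and TetLowProg replicate 12 held 8 members in place of 9, and the other libraries held as many as before. Where a library has no count of a member, the limit of 3 counts is 0.0824 to 0.183 CPM.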
